A study of Mus musculus with 11 samples.

Results

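Transcripts of voltage-gated sodium channel subunits were followed across the cell classes of the mouse hindbrain and upper cervical cord. The set held 8 of the 25827 genes in the deposited matrices and was defined by a list of gene symbols. It comprised 5 genes of pore-forming alpha subunits (Scn1a, Scn2a, Scn3a, Scn8a and Scn9a) and 3 genes of auxiliary beta subunits (Scn2b, Scn3b and Scn4b). Single-nucleus RNA sequencing with 3′ tags had been performed on nuclei sorted from male mice aged 8 to 12 weeks. Each sample combined the cerebellum and the brainstem, the latter from 1 hemisphere, with cervical cord, so regions of origin were not kept apart. All mice carried loxP sites in both copies of Il12rb2, a receptor subunit gene of the cytokine interleukin-12. Mice of the genotype Il12rb2fl/fl (fl) had no further allele, and NestinCre/+Il12rb2fl/fl mice (NestinCre) also carried a Cre recombinase. The Nestin promoter that drives it is active in precursors of neurons and of most glia, so the allele does not separate these lineages and leaves microglia out. Experimental autoimmune encephalomyelitis (EAE) was induced with a myelin oligodendrocyte glycoprotein peptide in complete Freund's adjuvant plus pertussis toxin, and tissue was taken at day 10. Both EAE groups had 4 samples, and non-immunized (naive) mice gave 2 fl samples and 1 NestinCre sample. Sequencing run 1 covered the first 3 replicates of each EAE group. Replicate 4 of each was sequenced in run 2 together with fl naive 2, and the remaining naive samples, fl naive 3 and NestinCre naive 2, made up run 3.

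Voltage-gated sodium channels open when the membrane depolarizes and carry the inward current of the action potential. An alpha subunit forms the pore and the voltage sensors by itself, and beta subunits are small membrane-spanning proteins that bind it and adjust gating and placement in the membrane. The channels are packed at the axon initial segment and at nodes of Ranvier, and their redistribution along demyelinated axons is a known feature of EAE and of multiple sclerosis.

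The 11 libraries held 40761007 to 86063464 unique molecular identifiers (UMIs) in 13120 to 22951 barcodes, and any pair of libraries shared 0.358% to 0.692% of barcodes. The analysis used 137187 nuclei in 12 classes, 7 of neurons and 5 of glia, that were named from marker genes and each had at least 16 nuclei in every sample. These were granule cells, unipolar brush cells, Purkinje cells, molecular layer interneurons and Golgi cells of the cerebellar cortex, excitatory and inhibitory neurons outside these classes (told apart by markers and exclusion, not by place), mature oligodendrocytes, oligodendrocyte progenitor cells, astrocytes, Bergmann glia and microglia. Levels are given as CPM, the UMIs of a gene per 1000000 UMIs of its class in a sample. Every marker reached 20 CPM in its class except 2 of 6 in Golgi cells, 5 of 10 in the excitatory and 1 of 7 in the inhibitory class. The markers that were highest in their own class were fewer than all in inhibitory neurons (1 of 7), molecular layer interneurons (3 of 7), excitatory neurons (6 of 10), Golgi cells (4 of 6), brush cells (4 of 6) and progenitors (5 of 6), and all were in the other 6 classes. Il12rb2, the targeted gene, was at 16, 22.0, 16.2 and 13.8 CPM in granule cells of fl EAE samples 1 to 4 and at 21.5, 18.8, 19.4 and 10.1 CPM in those of NestinCre EAE. It was at 17.8 and 17.5 CPM in the fl naive samples and at 16.7 CPM in the NestinCre naive sample. The groups overlapped, and because these counts cover the whole gene they do not check the floxed part.

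In GRCm39 with the GENCODE vM39 annotation, Scn3a, Scn2a, Scn1a and Scn9a lie within 1177.8 kb of chromosome 2 (chr2:65287462-66465306). Scn8a lies at chr15:100767739-100943819, and the 3 beta subunit genes are on chromosome 9, where Scn2b (chr9:45029080-45041368) and Scn4b (chr9:45049595-45065452) are 8.2 kb apart. The alpha genes span 110.5 to 176.1 kb and 27 exons each, the beta genes 12.3 to 23.7 kb and 4 to 6 exons. Every member overlaps at least 1 annotated gene on the other strand, and Scn2b lies wholly within the antisense Gm10684. All 4 comparisons of groups below set a gene against itself. Different genes are ranked against each other per kb of gene body, with undivided CPM given beside it for Scn2b and Scn4b in Purkinje cells.

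The repressor element bound by REST, which keeps neuronal genes silent in other cells, was first described at a sodium channel gene, so its core letters, CAGCACC and GGACAG parted by 2 unspecified letters, were searched on both strands within 10 kb of the start of each gene. They were found at 216 of 21770 protein-coding genes (0.992%) and at 2 of the 8 members. One match lay upstream of the start of Scn2a, at position −792 (chr2:65450308-65450328, plus strand), and the other lay at position 1662 inside Scn3b, in an exon of an annotated transcript (chr9:40181036-40181056, minus strand). Capitals mark the 13 letters compared, and both matches are shown because the members that hold them differed in their highest class, granule cells for Scn2a and excitatory neurons outside the granule and brush cell classes for Scn3b.

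Scn2a: ttCAGCACCacGGACAGcacc

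Scn3b: ctCAGCACCacGGACAGtagc

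A match describes letters in the reference sequence and was not set against binding data. That 6 members lacked one says only that these letters do not occur in the window searched.

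The class with the highest mean was not the same for all alpha subunits. Scn2a was highest in granule cells, Scn1a and Scn9a in inhibitory neurons, Scn8a in Golgi cells and Scn3a in oligodendrocyte progenitor cells. This order is that of CPM over all nuclei and depended on the measure. With UMIs per nucleus the highest class became inhibitory neurons for Scn2a, Scn3a and Scn2b and Purkinje cells for Scn8a. With nuclei under 6000 UMIs alone it became molecular layer interneurons for Scn1a, Golgi cells for Scn9a, inhibitory neurons for Scn3a and Scn3b, and excitatory neurons for Scn4b. Summed over the 5 alpha genes, the neuron classes had 1116 CPM (Purkinje cells) to 2018 CPM (inhibitory neurons) and the glia 224 CPM (microglia) to 844 CPM (progenitors).

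**Figure D1:**
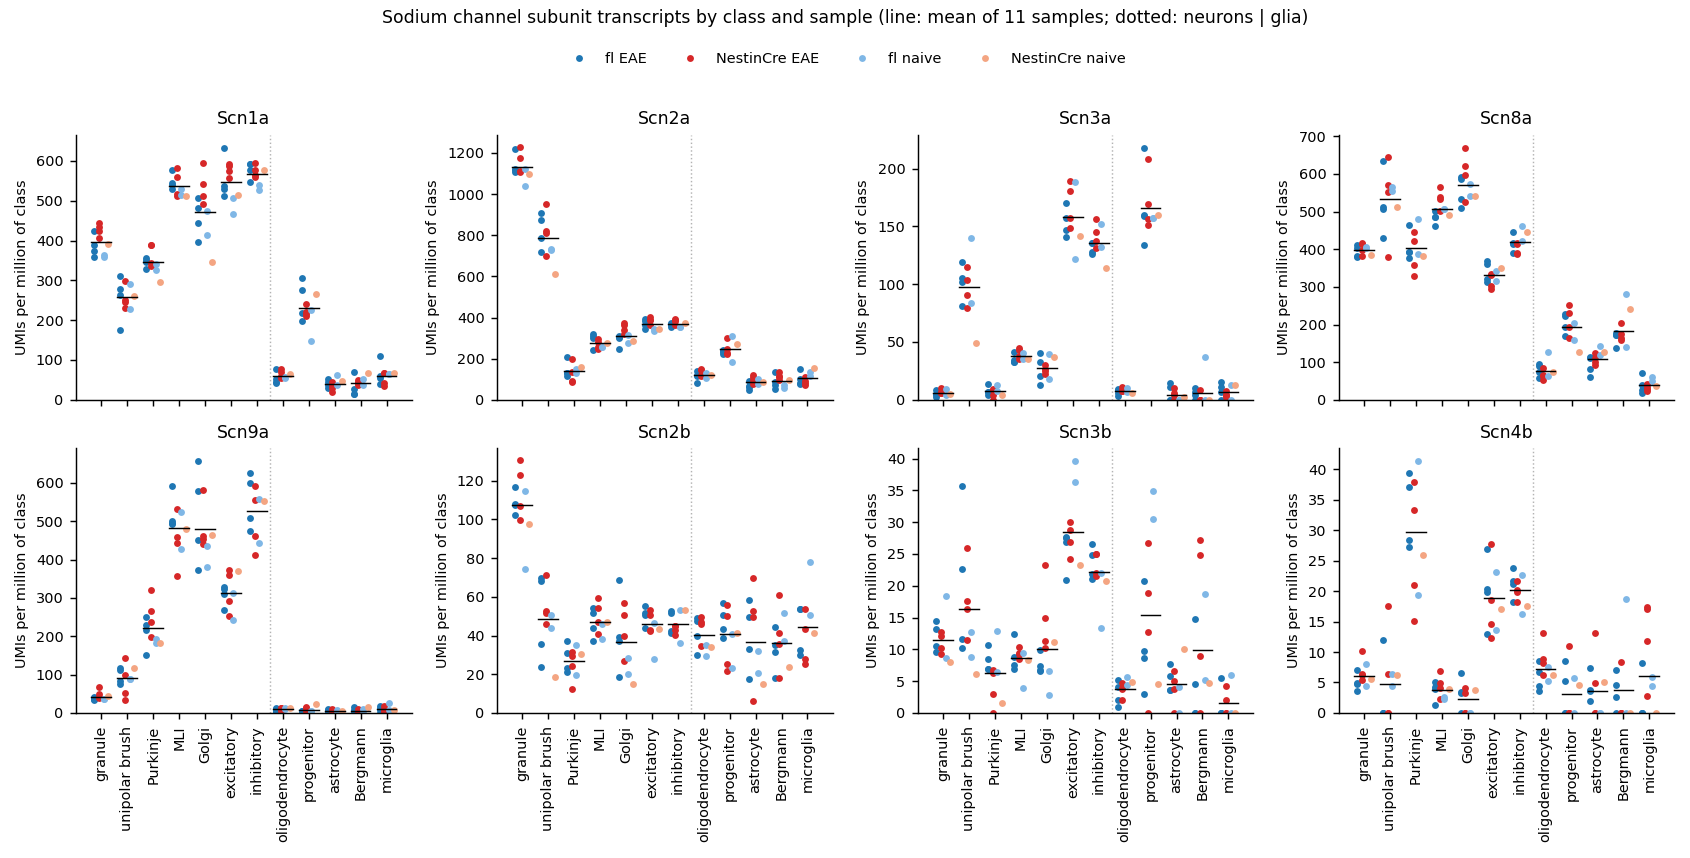
Level of each subunit (vertical axes, CPM) in 7 neuron and 5 glia classes (horizontal axes, divided by a dotted line), with 1 point per sample coloured by group and a line at the mean of 11 samples. Scn8a and Scn9a lie higher in every neuron class than in every glia class, whereas Scn3a reaches its highest mean in progenitors and the 4 groups overlap in most panels.

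Scn1a, the alpha subunit of fast-spiking inhibitory neurons and a gene of inherited epilepsy, was at 527, 576 and 595 CPM (lowest, median and highest of 11 samples) in inhibitory neurons. Excitatory neurons (546 ± 48.0 CPM, SD, n = 11) and molecular layer interneurons (538 ± 25.7 CPM) came next. These 3 classes were not separable, since inhibitory exceeded excitatory neurons in 8 of 11 samples and excitatory neurons exceeded interneurons in 6. Golgi cells had 473 ± 70.3 CPM, granule cells 397 ± 31.3, Purkinje cells 345 ± 26.8 and unipolar brush cells 257 ± 38.3 CPM. Granule cells were above Purkinje cells, and these above brush cells, in 11 of 11 samples. Among glia, progenitors stood at 229 ± 41.9 CPM, above every other glial class in all samples, and the other 4 classes lay between 40.6 and 60.9 CPM. Progenitors and brush cells were close, with brush cells higher in 9 of 11 samples.

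Scn2a, an alpha subunit of unmyelinated axons, was at 1038, 1115 and 1227 CPM (lowest, median and highest) in granule cells, the cells whose thin parallel fibres fill the molecular layer. Unipolar brush cells, the other excitatory cells of the cerebellar cortex, had 786 ± 99.5 CPM. Granule cells were above brush cells, and brush cells above inhibitory neurons (369 ± 14.2 CPM), in 11 of 11 samples. Excitatory neurons outside the granule and brush classes had 369 ± 23.9 CPM and were below inhibitory ones in 6 of 11 samples, so this pair was not ordered. Purkinje cells, with 140 ± 37.5 CPM, were the lowest neurons and lay 8.1-fold below granule cells. Progenitors (245 ± 36.0 CPM) were above Purkinje cells in 11 of 11 samples.

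Scn3a, known as the alpha subunit of the embryonic brain, was the only member whose highest mean lay in glia. Progenitors had 134, 159 and 218 CPM (lowest, median and highest), from 420 UMIs in all. The groups overlapped in full, at 218, 160, 134 and 159 CPM in fl EAE samples 1 to 4 and at 156, 169, 151 and 208 CPM in NestinCre EAE. Naive progenitors had 157, 158 and 160 CPM. Excitatory neurons had 158 ± 21.5 CPM and were below progenitors in 8 of 11 samples, so the order of these 2 classes was not firm. Inhibitory neurons (136 ± 12.1 CPM) and brush cells (97.2 ± 24.1 CPM) followed. Interneurons (37.5 ± 4.24 CPM) and Golgi cells (27.8 ± 9.19 CPM) had less, and the other 6 classes had means of 4.41 to 7.64 CPM. Granule cells were among these, at 6.09 ± 2.28 CPM, a 26.0-fold distance from excitatory neurons.

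Scn8a, the principal alpha subunit of nodes and of the distal axon initial segment, was the most even alpha gene among neurons, with a 1.73-fold distance between the highest and the lowest neuron class. Golgi cells had 509, 572 and 670 CPM (lowest, median and highest). Brush cells (533 ± 78.9 CPM) were below Golgi cells in 7 of 11 samples and interneurons (507 ± 28.6 CPM) below brush cells in 9, so this upper group was not clearly ordered. Interneurons were above inhibitory neurons (419 ± 24.3 CPM) in 11 of 11 samples. Inhibitory neurons, Purkinje cells (403 ± 45.6 CPM) and granule cells (399 ± 13.8 CPM) did not separate, and excitatory neurons were the lowest neurons with 330 ± 23.8 CPM. Among glia, progenitors had 195 ± 37.2 CPM, Bergmann glia 184 ± 43.2, astrocytes 108 ± 22.9, mature oligodendrocytes 77.1 ± 21.0 and microglia 39.1 ± 16.1 CPM.

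Scn9a, best known from nociceptive sensory neurons, was at 412, 552 and 627 CPM (lowest, median and highest) in inhibitory neurons. Molecular layer interneurons (482 ± 61.4 CPM) and Golgi cells (480 ± 88.6 CPM) had the next means. Golgi cells exceeded inhibitory neurons in fl EAE 1, fl EAE 2 and NestinCre EAE 4, and interneurons did so in fl EAE 3. Interneurons and Golgi cells traded places from sample to sample. Excitatory neurons had 312 ± 44.9 CPM, Purkinje cells 221 ± 47.1, brush cells 91.9 ± 30.8 and granule cells 42.3 ± 9.42 CPM. Golgi cells were above excitatory neurons, these above Purkinje cells, and these above brush cells in 11 of 11 samples. No glial class passed a mean of 10.4 CPM, and in every sample each neuron class lay above each glia class. Scn8a shared that separation in 11 of 11 samples and Scn1a in 9.

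Among the beta subunits Scn2b, which is bound to the alpha subunit by a disulfide bond, had 74.2, 108 and 131 CPM (lowest, median and highest) in granule cells and was highest there in 11 of 11 samples. The other 11 classes ranged from 26.9 to 48.4 CPM with no clear order, glia included (36.2 to 44.6 CPM). Scn3b, which binds without such a bond, was highest in excitatory (28.4 ± 5.45 CPM) and inhibitory neurons (22.15 ± 3.504 CPM) outside the other neuron classes. Excitatory neurons exceeded inhibitory ones in 10 of 11 samples. Scn4b, a subunit tied to the resurgent current of Purkinje cells, had 15.2, 28.3 and 41.4 CPM (lowest, median and highest) in these cells, from 172 UMIs. It had 8.18 CPM in Purkinje nuclei under 6000 UMIs, where excitatory neurons were highest with 9.64 CPM. Such nuclei are a minority of Purkinje cells, whose median depth was 11188 to 17293 UMIs over samples, and a sample had none. Over all nuclei, inhibitory (20.1 ± 2.35 CPM) and excitatory neurons (18.8 ± 5.42 CPM) followed, Purkinje cells being above inhibitory neurons in 9 of 11 samples. All other classes had means of at most 7.14 CPM, and Golgi cells were lowest with 2.21 ± 2.29 CPM.

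Per kb of gene body, Scn2a made up 61.1% ± 1.16 of the summed alpha level of granule cells (SD, n = 11) and 47.1% ± 3.43 of that of brush cells, and was the largest alpha share in 11 of 11 samples of both. In excitatory neurons Scn1a was largest in 11 of 11 samples, with 29.0% ± 1.76. In interneurons Scn9a was largest in 6 samples, Scn1a in 4 and Scn8a in 1, and in inhibitory neurons Scn9a was largest in 6 and Scn1a in 5, both genes holding 25.9% to 27.8% on average. Purkinje and Golgi cells led with Scn8a in 9 and 8 of 11 samples. Scn3a took 26.6% ± 3.52 in progenitors and 0.437% ± 0.164 in granule cells. Among beta genes Scn2b had the largest mean share in every class, from 50.4% ± 6.53 in Purkinje cells, where Scn4b held 43.1% ± 6.45, to 90.8% ± 3.03 in granule cells. In Purkinje cells this order turns with the scaling, since without division by length Scn4b had the higher mean (29.7 CPM against 26.9 CPM for Scn2b).

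**Figure D2:**
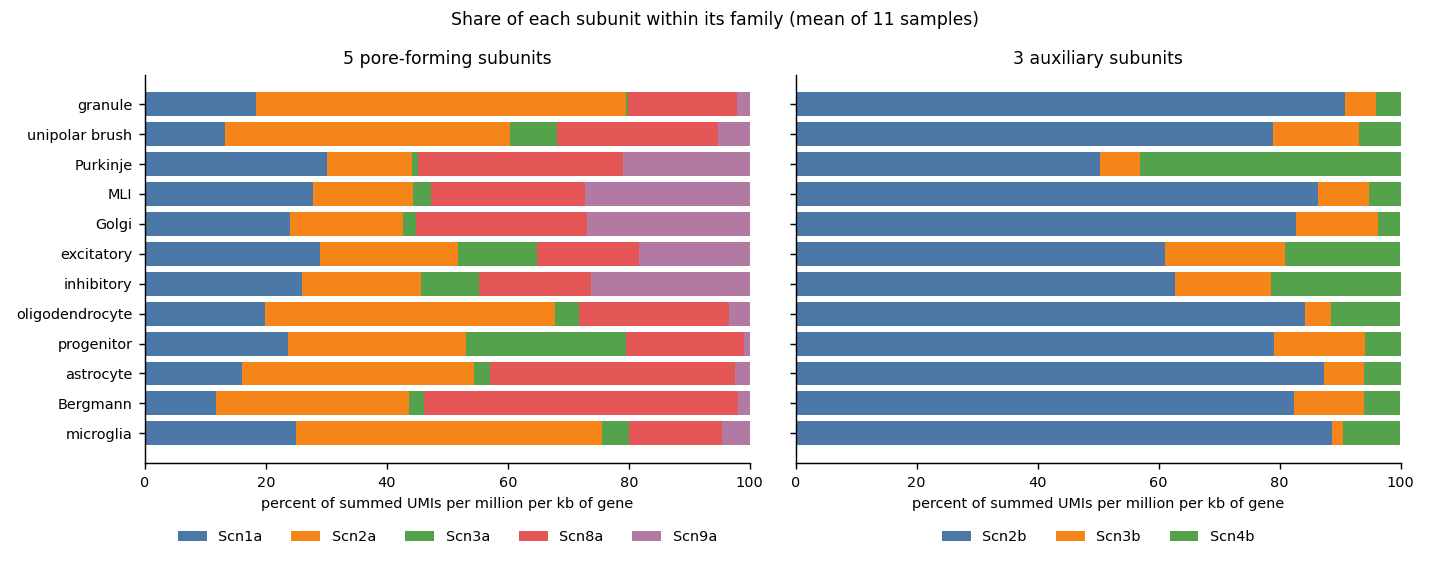
Mean share over 11 samples of each alpha gene (left) and each beta gene (right) in the summed level of its family, in percent of CPM per kb of gene body, for 12 classes. Scn2a fills 61.1% of the alpha bar of granule cells, and Scn4b fills 43.1% of the beta bar of Purkinje cells.

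Droplets also capture RNA released by other cells, and granule cells were the most abundant class. The level of each gene in glia was therefore set beside that of 5 neuronal transcripts (Gabra6, Fat2, Rbfox3, Snap25 and Grin2c), each as a percentage of the granule cell level of the same sample. In progenitors the 5 transcripts were at 2.63% to 21.6%, whereas Scn1a was at 58.2% ± 12.6 and Scn8a at 48.8% ± 8.84 (SD, n = 11), above all 5 in 11 of 11 samples. Scn3a in progenitors was at 3120% of the granule level. Scn2a in progenitors, at 21.7% ± 3.25, was above all 5 in only 5 of 11 samples. Snap25 (21.6%) was the transcript near it, and Gabra6, Fat2, Grin2c and Rbfox3 had means of 2.63% to 8.06% there. Bergmann glia had Scn8a at 46.2% ± 10.9, above the transcripts (3.51% to 12.95%) in 11 of 11 samples. In Bergmann glia Scn1a (10.4%) and Scn2a (8.28%) had means among those of the transcripts and passed all 5 in 3 and 0 samples.

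In mature oligodendrocytes Scn1a and Scn2a were at 14.9% ± 2.63 and 10.9% ± 1.90, against 4.51% to 16.4% for the transcripts, and passed all 5 in 3 and 0 samples. Scn8a there, at 19.4% ± 5.36, passed all 5 transcripts in 7 of 11 samples. In microglia Scn1a (15.5%) passed all 5 in 4 of 11 samples, and Scn2a (9.48%) and Scn8a (9.88%) did so in no sample. Astrocytes had 1 transcript of the 5, Grin2c, at 52.4% ± 16.7, and the other 4 at 3.04% to 11.7%. Scn8a in astrocytes was at 27.1% ± 6.08, between these values. Scn2b was at 34.0% to 42.4% in all 5 glial classes, and above every transcript in 11 of 11 samples of oligodendrocytes, Bergmann glia and microglia.

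**Figure D3:**
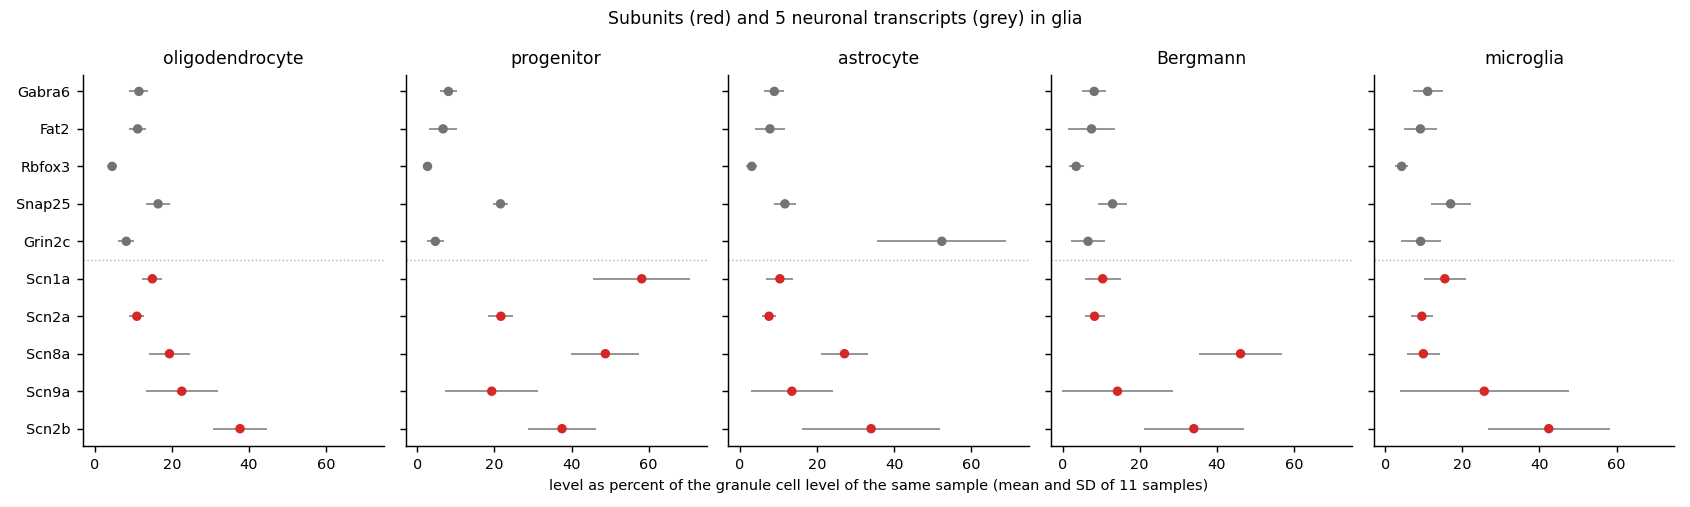
Level in 5 glial classes as a percentage of the granule cell level of the same sample (horizontal axes, mean and SD of 11 samples) for 5 neuronal transcripts in grey and 5 subunits in red. Scn1a in progenitors (58.2%) and Scn8a in progenitors (48.8%) and Bergmann glia (46.2%) lie to the right of all grey points of their own panel. Scn2a in microglia (9.48%) lies among the grey points of its panel.

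Classes were not uniform inside. The clusters described here had been formed without the members among the clustering genes, and their levels are a description. Granule cells fell into 13 clusters. Scn9a was at 11.7 ± 5.06 CPM in the cluster led by Angpt1 and Ntf3 (5437 nuclei) and at 105 ± 29.3 CPM in that led by Vipr2 and Ror1 (11432 nuclei), a 9.01-fold distance. The ranges over samples, up to 18.7 and from 81.5 CPM, did not meet. Scn1a had its lowest and highest level in the same 2 clusters, at 278.9 ± 23.96 and 597 ± 57.5 CPM. Scn8a was nearly constant, with means of 375 to 410 CPM, and Scn2a ran from 914 to 1262 CPM, highest in the cluster led by Bmp5. A granule cluster led by Nlrc5 and Serping1 held 901 nuclei in 9 samples, of which NestinCre EAE 1 gave 570, and its values over samples were unsteady for that reason.

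Inhibitory neurons outside the cerebellar cortex classes fell into 7 clusters with opposite orders of 2 beta subunits. Scn4b was at 41.3 ± 4.52 CPM in the cluster led by Slit2 and at 1.98 ± 2.14 CPM in that led by Pde1a, which is a 20.8-fold distance. Scn3b was at 4.36 ± 2.45 and 50.2 ± 11.0 CPM in the same clusters, an 11.5-fold distance the other way. Neither pair of ranges met over the 11 samples. The Slit2 cluster had more of the glycine transporter gene Slc6a5 (166 against 61.3 CPM) and less Gad2, an enzyme of GABA synthesis (50.6 against 275 CPM). Scn4b did not follow Slc6a5 over all clusters. The cluster led by Pdzd2 had 247 CPM of Slc6a5 and 22.7 CPM of Scn4b, and that led by Htr2c had 162 and 9.70 CPM. The Slit2 cluster also had the highest mean of Scn1a (686 ± 26.8 CPM) and Scn8a (548 ± 36.9 CPM) of the 7 clusters and the lowest of Scn3a (78.2 ± 8.89 CPM). Its Scn9a (720 ± 91.0 CPM) was not separable from that of the cluster led by Ccbe1 (712 ± 80.2 CPM). In molecular layer interneurons the means of 7 clusters ran from 17.1 to 62.3 CPM for Scn3a, a wider fold than in inhibitory neurons (3.64 against 2.81), and from 274 to 631 CPM for Scn9a, a narrower one (2.31 against 4.09).

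**Figure D4:**
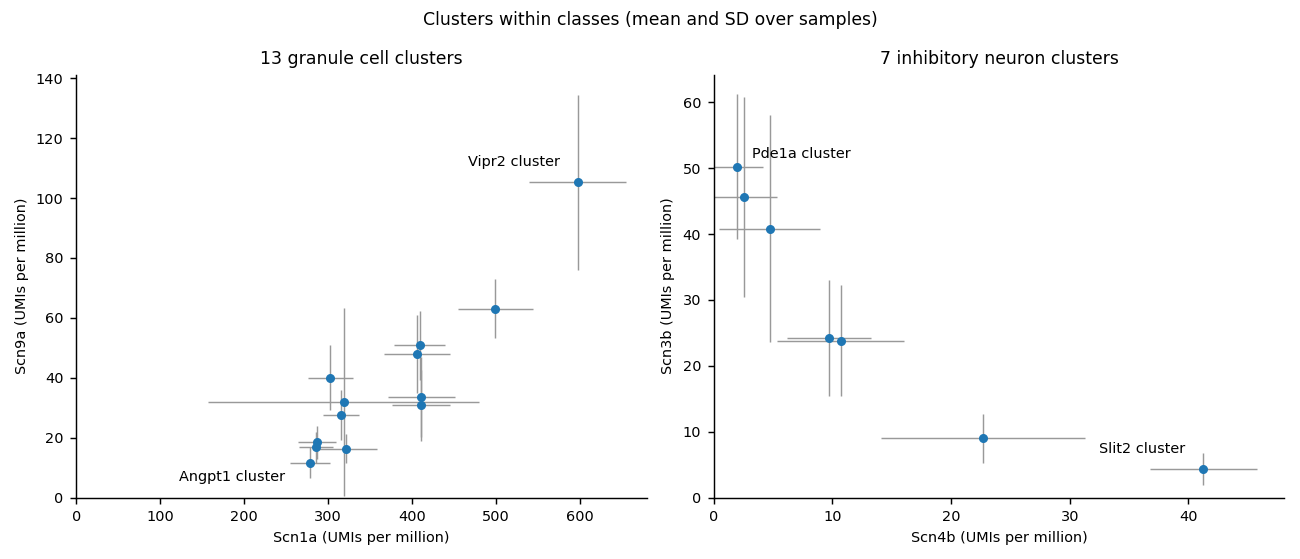
Left, Scn9a against Scn1a in 13 granule cell clusters, and right, Scn3b against Scn4b in 7 inhibitory neuron clusters, all in CPM with the mean and SD over the samples that hold the cluster. Scn9a and Scn1a are lowest together in the Angpt1 cluster and highest together in the Vipr2 cluster, while Scn3b is highest where Scn4b is lowest.

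Across the mean levels of the 12 classes on a log2(CPM + 1) scale, Scn1a and Scn9a were the most alike pair of members (Pearson r = 0.902), followed by Scn1a and Scn8a (0.825), and Scn2b and Scn4b were the least alike (0.039). The classes share libraries and differ in depth, so these values are descriptive. Of 11404 genes compared, Scn1a was most like Arfgef3 (0.984), Rit2 and Hs6st2, and Scn2a most like Septin3 (0.977), Stxbp5l and Hectd4. Scn3a was followed most closely by the potassium channel gene Kcnq5 (0.963), Nsg2 and the potassium channel gene Kcnt2. Scn8a was most like Syt14 (0.978), Gm37181 and Mcf2l, and Scn9a most like Cdkl1 (0.979), Smpd4 and Fstl4. Scn2b was most like Faap20 (0.930), Kcnj12 and Grm4, Scn3b most like Zkscan16 (0.959), Bbs7 and Ahi1, and Scn4b most like Sv2c (0.966), Bcl11a and Igf1.

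The first comparison of groups asked what the deletion changes at day 10 of EAE. Of 96 pairs of a member and a class, 71 passed the filter on low counts, and 0 passed an adjusted p of 0.05 (edgeR's quasi-likelihood test with sequencing run in the model, Benjamini-Hochberg over all genes of a class). Over all genes and classes 1.23% of 104073 tests were called. At an unadjusted p under 0.05 there were 2 member pairs by edgeR and 1 by DESeq2 (which called 0), where 7.93% of all tests fell under this limit. In granule cells alone 2.09% and in microglia 6.74% of genes were called. The log2 fold changes ran from −0.42 (Scn1a in microglia) to 0.56 (Scn2a in astrocytes), with 44 above and 27 below 0. For 59 pairs the 95% interval lay within 1 log2 unit on either side of 0, and for 39 within 0.5.

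Scn2a in granule cells was at 1123, 1115, 1106 and 1221 CPM in fl EAE and at 1175, 1111, 1227 and 1105 CPM in NestinCre EAE (log2 fold change 0.00, 95% interval −0.21 to 0.20). Scn1a in inhibitory neurons was at 576, 591, 548 and 593 CPM and at 559, 578, 595 and 565 CPM (log2 fold change −0.01, interval −0.13 to 0.10). The groups overlapped for both genes. Scn9a in inhibitory neurons varied more among samples, at 510, 601, 475 and 627 CPM in fl EAE and 555, 591, 461 and 412 CPM in NestinCre EAE, and its log2 fold change was −0.14 (interval −0.38 to 0.09).

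One of the 2 pairs under an unadjusted p of 0.05 was Scn9a in granule cells. It was at 34.1, 41.2, 37.4 and 37.2 CPM in fl EAE and at 49.4, 67.3, 42.1 and 40.2 CPM in NestinCre EAE, so only the highest fl EAE sample reached into the other group. The log2 fold change was 0.37 ± 0.15 (SE), with an adjusted p of 0.41 by edgeR's test (0.1145 to 0.7545 over the alternatives). NestinCre EAE 2 stood highest with 67.3 CPM, and its share of granule nuclei in the Vipr2 cluster was ordinary (10.6%, others 10.2% to 12.3%). Inside that cluster this sample had 182 CPM of Scn9a, against 81.5 to 123 CPM in the other 10 samples, and outside it 51.8 CPM against 27.1 to 40.2 CPM. The same sample also had the highest Scn9a of the 4 NestinCre EAE samples in the other 6 neuron classes, among them brush cells (142 CPM, others 34.4 to 98.4) and Golgi cells (582.4 CPM, others 442 to 462). Without NestinCre EAE 2 the log2 fold change was 0.22, and within run 1 alone it was 0.52. The NestinCre naive sample had 45.1 CPM and the fl naive samples had 35.3 and 36.3 CPM.

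The other pair was Scn2a in astrocytes, at 49.6, 65.9, 92.1 and 60.6 CPM in fl EAE and at 112, 95.4, 119 and 74.9 CPM in NestinCre EAE, from 13 to 50 UMIs per sample. The log2 fold change was 0.56 ± 0.25 (SE) with an adjusted p of 0.736 by edgeR's test. Scn2a in astrocytes was at 7.53% of the granule cell level, among the means of Gabra6, Fat2, Snap25 and Rbfox3 there (3.04% to 11.7%). Grin2c was at 17.4% to 71.6% in astrocytes, and Scn2a passed all 5 neuronal transcripts in 0 of 11 samples. Snap25 (11.7%), Gabra6 (8.90%) and Fat2 (7.78%) also had higher means there than Scn2a. The part of released RNA in the Scn2a value was not tested.

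Immune markers were read in the same samples. The 7 markers read in every class were Cx3cr1, P2ry12, Csf1r, Ptprc, Cd74, Cd3e and Ccr2. Of their pairs with the 12 classes only 35 passed the count filter and were tested. Among these, 12 were called higher and 1 lower in NestinCre EAE, beside the 1.23% called over all genes and classes. A marker near 0 in fl EAE can pass the filter through NestinCre EAE alone, so the 12 calls are not a share of all marker pairs. In granule cells their summed level was 87.5 to 97.9 CPM in fl EAE, 119 to 139 CPM in NestinCre EAE, 73.9 to 101 CPM in fl naive and 97.6 CPM in NestinCre naive. Cd74, the invariant chain of MHC class II, was at 1.24 to 7.75 and 26.9 to 38.7 CPM in granule cells of the EAE groups. Cd3e was at 0 in 1 of 11 samples there. In astrocytes the summed level was 60.6 to 73.2 CPM in fl EAE and 94.9 to 145 CPM in NestinCre EAE, and Cd3e was at 0 in 10 of 11 samples. The fl naive astrocytes had 31.8 to 40.9 CPM and the NestinCre naive ones 90 CPM, above every fl EAE sample. The part of these markers in the Scn9a and Scn2a values was not tested.

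**Figure D5:**
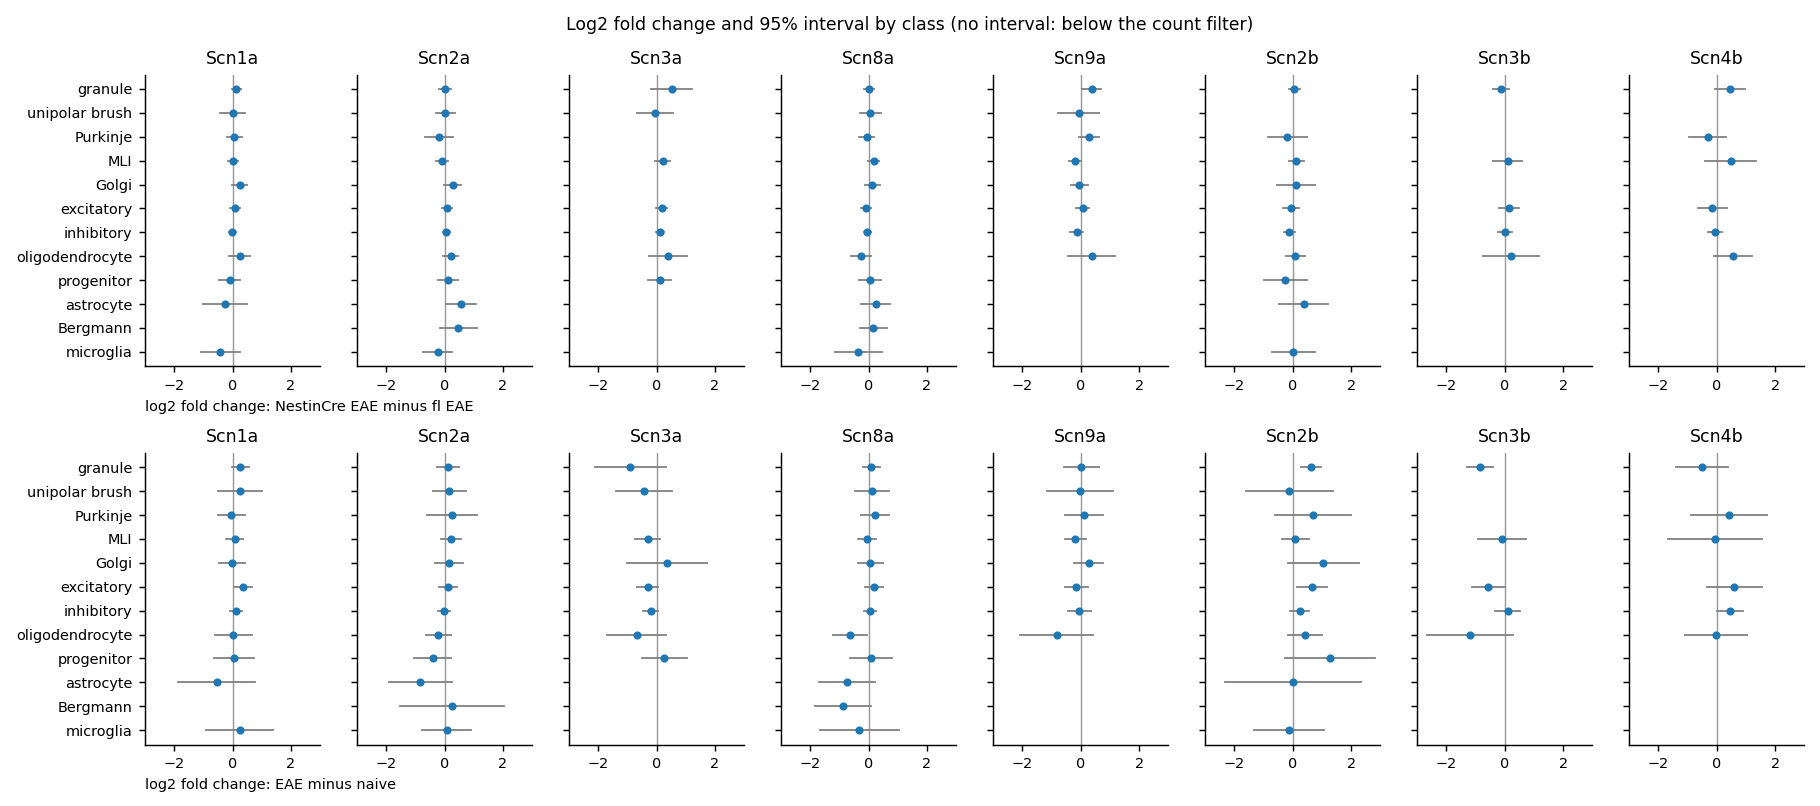
Log2 fold change (horizontal axes, point) with its 95% interval (line) for each member in each class that passed the count filter, for NestinCre EAE minus fl EAE (upper row) and for EAE minus naive (lower row). All points are blue because 0 of 71 and 0 of 73 pairs passed the adjusted threshold, and the intervals of the lower row are wider.

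The second comparison asked what EAE changes in fl mice, and it shares the fl EAE samples with the first. Of 73 pairs tested, 0 were called by edgeR, against 0.138% of all tests, and 6 had an unadjusted p under 0.05 (DESeq2: 0 called and 4, with no adjusted p for 8 pairs), against 8.07% of all tests. Runs 1 and 3 hold EAE or naive samples alone, so with run in the model this contrast rests on run 2, in which fl naive 2 is the only naive library. The lowest unadjusted p values belonged to 2 beta subunits in granule cells. Scn3b was at 18.4 CPM in fl naive 2 but at 8.66 in fl naive 3 and 8.01 CPM in NestinCre naive 2, and the 8 EAE samples lay between 9.19 and 14.5 CPM. Its log2 fold change of −0.84 ± 0.20 (SE, adjusted p = 0.278, edgeR) was −0.11 without the run term.

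Scn2b in granule cells was at 74.2 CPM in fl naive 2, 115 CPM in fl naive 3 and 97.8 CPM in NestinCre naive 2, and at 99.5 to 131 CPM in EAE. Its log2 fold change of 0.63 ± 0.15 (SE; edgeR, adjusted p = 0.278) became 0.29 without the run term. In both genes fl naive 2 lay outside the EAE range while fl naive 3 did not lie on the same side of it. Scn8a in mature oligodendrocytes was at 126 CPM in fl naive 2, at 64.4 and 75.1 CPM in the other naive samples and at 53.7 to 94.9 CPM in EAE (log2 fold change −0.64 ± 0.27, adjusted p = 0.344, edgeR). Without NestinCre EAE 4 it was −1.05, and without fl EAE 4 it was −0.13. The former gave the only member call in any leave-one-out fit. With run in the model that fit sets 1 library against 1, fl EAE 4 against fl naive 2.

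The remaining 3 pairs showed differences of 0.34 to 0.66 in the excitatory and inhibitory neuron classes. In excitatory neurons Scn1a was at 466, 506 and 515 CPM in the naive samples and at 512 to 634 CPM in EAE, so the groups met only at their edges. Scn2b in these neurons was at 27.7 and 46.2 CPM in fl naive and 43.2 CPM in NestinCre naive, and at 42.5 to 55.1 CPM in EAE. Scn4b in inhibitory neurons was at 16.2 and 22.7 CPM in fl naive and 17.6 CPM in NestinCre naive, and 2 of these 3 values lay below the EAE range of 18.3 to 23.9 CPM. The adjusted p values were 0.661, 0.602 and 0.537 by edgeR's test. For Scn1a the log2 fold change of 0.34 was 0.17 without fl EAE 4 and reversed to −0.35 among nuclei under 6000 UMIs.

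Genotype in naive mice and the interaction of genotype with EAE were also tested on 73 pairs each. The NestinCre naive group has 1 sample, which the fit assumes to vary like the other groups. With run in the model its difference from fl naive, also within the interaction, is that from fl naive 3 alone, the other library of run 3. edgeR called 0 member pairs in either, against 0.00595% and 0.0068% of all tests, and each had 5 pairs at an unadjusted p under 0.05 (DESeq2: 0 called and 1 in each, with no adjusted p for 3 and 9 pairs), against 4.29% and 5.01% of all tests. The lowest adjusted p was 0.66 (Scn9a in excitatory neurons, 243 and 314 CPM in fl naive and 369 CPM in NestinCre naive) for the former and 0.817 for the latter. Intervals were within 1 log2 unit of 0 for 39 and 33 pairs, and for the rest larger differences are not excluded.

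The other genes of the sodium channel complex and of the sodium gradient were read from 5 lists of 35 genes. In the genotype comparison in EAE, 1 of 311 pairs was called, beside the 1.23% called over all genes and classes, with a median log2 fold change of 0.02 against 0.00 over all genes tested. This was Fgf13, a fibroblast growth factor homologous factor that binds the inner tail of alpha subunits and stabilizes microtubules, and it was lower in NestinCre EAE microglia, the class in which 6.74% of genes were called. It was at 1355, 1169, 1208 and 1074 CPM in fl EAE and at 596, 830, 553 and 469 CPM in NestinCre EAE, with no overlap (log2 fold change −0.96 ± 0.15 SE, adjusted p = 0.0001655 by edgeR, and −0.90 within run 1). The fl naive samples had 1302 and 747 CPM and the NestinCre naive sample had 976 CPM. Granule cells, with 178 to 245 CPM in fl EAE and 190 to 229 CPM in NestinCre EAE, had less Fgf13 than microglia in every group, whereas molecular layer interneurons had 824 to 1099 CPM in fl EAE and 902 to 1037 CPM in NestinCre EAE, above the microglia of the latter group. Of the 7 immune markers, the homeostatic microglial gene Cx3cr1 was also called lower in NestinCre EAE microglia (log2 fold change −0.59) and Cd74 higher (2.49). P2ry12 and Csf1r, of the same list, were not called in microglia.

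By list, 0 of 29 pairs of other sodium channel genes, 1 of 36 of fibroblast growth factor homologous factors, 0 of 112 of initial segment and node scaffold genes, 0 of 91 of sodium extrusion genes and 0 of 43 of channel modifying enzymes were called by edgeR, and 2, 7, 10, 7 and 2 pairs had an unadjusted p under 0.05. Over all genes and classes 1.23% of tests were called and 7.93% were under that limit. The 5 neuronal transcripts had 0 of 48 pairs called and 1 under that limit. In EAE against naive, 0 of 334 pairs of the 5 lists were called, against 0.138% of all tests, with 33 at an unadjusted p under 0.05, against 8.07% of all tests, and a median of −0.01 against 0.01 over all genes tested.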

How the data were processed

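Single-nucleus libraries of 11 samples were analysed. The deposited matrices hold UMI counts per gene and barcode, which the authors made with Cell Ranger on GRCm39 with intronic reads counted and without normalization. The submitters' processing notes name version 6.0.2, and per the file headers run 1 was made with version 7.0.0. Nuclei needed 200 genes (run 1) or 500 genes (runs 2 and 3) and under 5% mitochondrial UMIs. The highest doublet scores, 0.8% per 1000 nuclei, were left out (26387 nuclei). Leiden clusters (89, members left out of the clustering genes) were named from marker lists, and 37 clusters with 23550 nuclei stayed unnamed. Rules that settled ambiguous names were set after marker tables had been seen. Names were rebuilt here, since no annotation was used.

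Sums of UMIs per sample and class went into the quasi-likelihood test of edgeR (version 4.0.16, R version 4.3.3) with TMM factors, filterByExpr, run as a covariate and a threshold of 0.05, with DESeq2 1.42.0 as an alternative. Genotype in EAE used the 8 EAE samples and the other contrasts used all 11. On simulated counts for genotype in EAE, 90% to 97% of 2-fold changes were recovered over 3 classes of 11945 to 16196 genes. For EAE against naive it was 46% to 73% over classes of 12814 to 16941 genes. The 3 classes were granule cells, inhibitory neurons and mature oligodendrocytes. Changed genes were drawn above a floor of mean UMIs, and no run effect was simulated. Each class had 200 changed genes, and the p that passes the adjusted threshold is looser when more genes are changed. The EAE against naive fits of the data called 1 gene in granule cells and 0 in inhibitory neurons. In mature oligodendrocytes they called 65 higher and 58 lower. Recovery with fewer changed genes was not simulated. Recovery in smaller classes or for members with few UMIs was not simulated. Named were the 8 members, Il12rb2, list genes that passed the test (at most 5 per list) and the 3 genes most like each member. Marker genes, genes that lead clusters and the neuronal and immune lists are named beside them. Pou4f1, Scn4a, Scn7a, Scn10a and Scn11a, in the closing observations, are named outside these rules. Members and lists were chosen with earlier results of these data known. The labels do not say that samples are separate mice, the study's methods define n as independent animals, and p-values measure the spread between samples. Replicate numbers did not pair the samples. Some genes of the lists are not reported here.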

Additional observations from a re-analysis of the deposited data

Results flagged for a closer look

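Among 142 groups of 4 samples, 6 held a sample that stood apart from the other 3 by Dixon's criterion, whose chance rate is about 5%. As a set, 6 of 142 is no more than that rate gives. Replicate 4 of fl EAE, the only fl EAE library of run 2, gave 4 of them. It had 1221 CPM of Scn2a in granule cells (others 1106 to 1123), 207 CPM of Scn2a in Purkinje cells (others 116 to 131), 138 CPM of Scn8a in Bergmann glia (others 171 to 177) and 21.0 CPM of Scn3b in excitatory neurons (others 26.9 to 27.6). Scn9a was at 593 CPM in molecular layer interneurons of fl EAE 2 (others 493 to 501) and at 582.4 CPM in Golgi cells of NestinCre EAE 2 (others 442 to 462).

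Some unnamed clusters had, over all their nuclei, higher levels than any whole class in any sample. In an unnamed cluster of 50 nuclei from 10 libraries, led by Ano2 and Stac, Scn3a was at 1752 CPM over all nuclei (1346 UMIs) and Scn3b at 124 CPM (95 UMIs), against at most 218 and 39.6 CPM in a class. A cluster led by Ebf2 (338 nuclei, 11 libraries) had 736 CPM of Scn1a and 61.1 CPM of Scn4b, and one led by Rgs6 (579 nuclei, 11 libraries) had 848 CPM of Scn9a. In single samples clusters inside the inhibitory class reached as much, with 878 (Ccbe1 cluster, NestinCre EAE 2) and 862 CPM (Slit2 cluster, fl EAE 4) of Scn9a and 738 CPM of Scn1a (Slit2 cluster, NestinCre EAE 3).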

How the results depend on the processing

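Every alternative left 0 member pairs called in genotype in EAE, genotype in naive and the interaction. In EAE against naive, leave-one-out fits gave 0 to 1 call (Scn8a in oligodendrocytes, above). List calls for genotype in EAE, 1 as reported, were 3 by DESeq2, 4 without the filter, 2 with nuclei under 6000 UMIs, 5 with doublet-scored nuclei kept, 4 in run 1 alone and 1 to 4 in leave-one-out fits (4 without replicate 4 of either group). For EAE against naive, 0 as reported, they were 1 by DESeq2, 4 without the filter, 2 without the run term, 1 with doublets kept and 0 to 2 in leave-one-out fits. Of the alternatives to member levels, UMIs per nucleus, which also follow the depth of a nucleus, left 4 of 8 members with the same highest class, and nuclei under 6000 UMIs left 3. Under that limit Scn1a and Scn9a in inhibitory neurons were at 412 and 399 CPM, Scn4b in Purkinje cells was at 8.18 CPM, and Scn1a in excitatory neurons reversed to −0.35 in EAE against naive (adjusted p = 0.978, edgeR). The causes were not tested. Fgf13 in microglia kept its call in every fit, from −1.12 to −0.87 in leave-one-out fits.

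Calls over all genes were 1276 for genotype in EAE, 2151 without the filter, 842 without the run term and 669 to 1429 in leave-one-out fits. For EAE against naive they were 163, 799 without the filter, 44 without the run term, 258 by DESeq2, 474 in run 2 alone and 64 to 358 in leave-one-out fits.

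With the replicate number as a block in place of run, 0 member pairs and 1 list pair were called. Same-numbered samples of run 1 correlated at −0.20 to 0.29 in their deviations, in 0 of 12 classes all above 0.1 and in 2 of 12 each best with its own number. Purkinje cells could not be fitted under 6000 UMIs, since a sample then had none, nor EAE against naive without fl naive 2, nor naive genotype without fl naive 3 or NestinCre naive 2. The naive groups hold 1 NestinCre and 2 fl samples. With run in the model, genotype in naive rests on NestinCre naive 2 against fl naive 3, and so does the naive part of the interaction. EAE against naive rests on 1 naive library of run 2.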

Other observations

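The Ano2 cluster also carried the transcription factor gene Pou4f1 (169 UMIs) and the vesicular glutamate transporter gene Slc17a6 (130 UMIs), with 3 UMIs each of Gad2 and Slc6a5. Scn3a was at 1199 to 2179 CPM in each of the 10 libraries that held the cluster, 6 of which had at most 2 of its nuclei. In the same nuclei Scn1a was at 307 ± 101 CPM, Scn2a at 293 ± 106, Scn8a at 314 ± 141 and Scn9a at 259 ± 76.1 CPM (SD, n = 10). Among other sodium channel genes Scn4a, Scn10a and Scn11a had mean levels of at most 0.562, 0.384 and 0.745 CPM in any of the 12 classes. Scn7a, a sodium sensor gene of this family, reached 14.6 CPM in excitatory neurons. These genes were named after their values had been seen.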
